A study of Mus musculus with 9 samples.

Results

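The genes described here are *Coq2*, *Coq7*, *Coq9*, *Pdss1* and *Pdss2*, which make ubiquinone (coenzyme Q), and *Etfdh*, *Prodh*, *Gpd2*, *Chdh* and *Aifm2*, whose products reduce it. They were chosen by name as the genes that make the substrate of mitochondrial complex III or feed electrons to it, and each of the 10 was found as 1 row among the 26858 genes of the count table. Counts came from SIX2-expressing nephron progenitors sorted by eGFP from E18.5 embryos, with 4 libraries from *Six2-Qpc*+/- control kidneys and 5 from *Six2-Qpc*-/- mutant kidneys. Both genotypes carried the *Six2-eGFP/cre* transgene, a bacterial artificial chromosome in which the *Six2* promoter drives a fusion of eGFP and Cre recombinase. Mutants were *Six2-eGFP/cre* tg/+;*Qpc* flox/flox. The controls had 1 inactivated copy of *Qpc* (*Uqcrq*) in the same cells, so the comparison is between the loss of both copies and the loss of 1 copy, and no wild-type cells were analysed here. The labels do not say whether a library holds 1 embryo or several, and p-values therefore measure the spread between libraries.

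Ubiquinone is a lipid that moves electrons in the inner mitochondrial membrane. Dehydrogenases reduce it to ubiquinol, and complex III, to which QPC belongs, oxidizes ubiquinol back to ubiquinone, so the dehydrogenases of mitochondria depend on complex III for their electron acceptor. Its synthesis joins a long isoprenoid tail to a ring that is then hydroxylated and methylated by a set of COQ proteins. Inherited defects of ubiquinone synthesis are a known cause of kidney disease, in particular of podocytes.

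Libraries held between 21040536 and 23986458 counted reads. Levels are given in CPM, that is counts per 1000000 reads of a library after normalization. *Uqcrq*, the targeted gene, fell from 94.1 ± 13.3 to 21.3 ± 4.45 CPM (SD, n = 4 control and 5 mutant libraries, as in all means below; adjusted p = 2.09e-05, edgeR). The nephron progenitor markers *Six2*, *Cited1*, *Eya1*, *Osr1*, *Pax2*, *Sall1*, *Meox1* and *Wt1* were present in every library, with a summed level of 1670 to 2020 CPM in control and 1860 to 2220 CPM in mutant libraries. Markers of stroma (*Foxd1*, *Pdgfra*, *Col1a1*, *Col3a1*, *Dcn*, *Meis1*) summed to 85.1 to 157 CPM in control and 223 to 611 CPM in mutant libraries, and 5 of the 6 rose in mutant cells. Myeloid markers (*Ptprc*, *Csf1r*, *C1qa*, *C1qb*, *Tyrobp*) summed to 0.256 to 8.27 CPM in control and 6.18 to 98.7 CPM in mutant libraries, and 1 of the 5, *Tyrobp*, rose. Markers of committed nephron cells (*Wnt4*, *Lhx1*, *Jag1*, *Fgf8*, *Pax8*) summed to 298 to 538 CPM in control and 215 to 332 CPM in mutant libraries, and *Wnt4* and *Lhx1* fell. Markers of proximal tubule, podocytes, ureteric bud, endothelium and erythroid cells summed to at most 38.9 CPM per list in any library. Of these, the endothelial gene *Pecam1* rose, from a mean of 0.248 to 1.36 CPM (adjusted p = 0.0469, edgeR), and *Cdh5*, too low to be tested, was also higher in every mutant library, at no more than 0.724 CPM. Along the first principal component, control replicate 76 and mutant replicate 74 lay nearest to the other genotype, and Y-linked transcripts were present in control replicates 72 and 73 and mutant replicate 79 only.

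*Coq2* and *Coq9* were lower in mutant cells, at 65.9% and 66.6% of their control levels, whereas *Coq7*, *Pdss1*, *Gpd2* and *Aifm2* had fitted changes close to 0 and *Chdh* was at the limit of detection. *Etfdh*, *Pdss2* and *Prodh* had lower means that did not pass the threshold. Of the 10 genes, 9 passed the filter on low counts and were tested in the fit over all 14990 genes. An adjusted p-value under 0.05 (edgeR quasi-likelihood test, Benjamini-Hochberg) was reached by 2 of these 9, both lower, against 14.8% of all genes tested, which for 9 genes is 1.34 genes. Lower calls made up 7.02% and higher calls 7.82% of all genes tested. Mutant libraries lay below all control libraries for 3 of the 9, *Coq2*, *Coq9* and *Etfdh*, where 7.73% of all genes did so and 15.2% were separated in either direction. At an unadjusted p-value under 0.05 there were 4 of the 9, against 31.4% of all genes, and 7 of the 9 had a fitted value below 0, against 50.8%. The median log2 fold change of the 9 genes was -0.31, and that of all genes tested was -0.01. In sorted cell preparations such as these, fewer cells of a kind and less RNA per cell cannot be told apart.

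**Figure D1:**
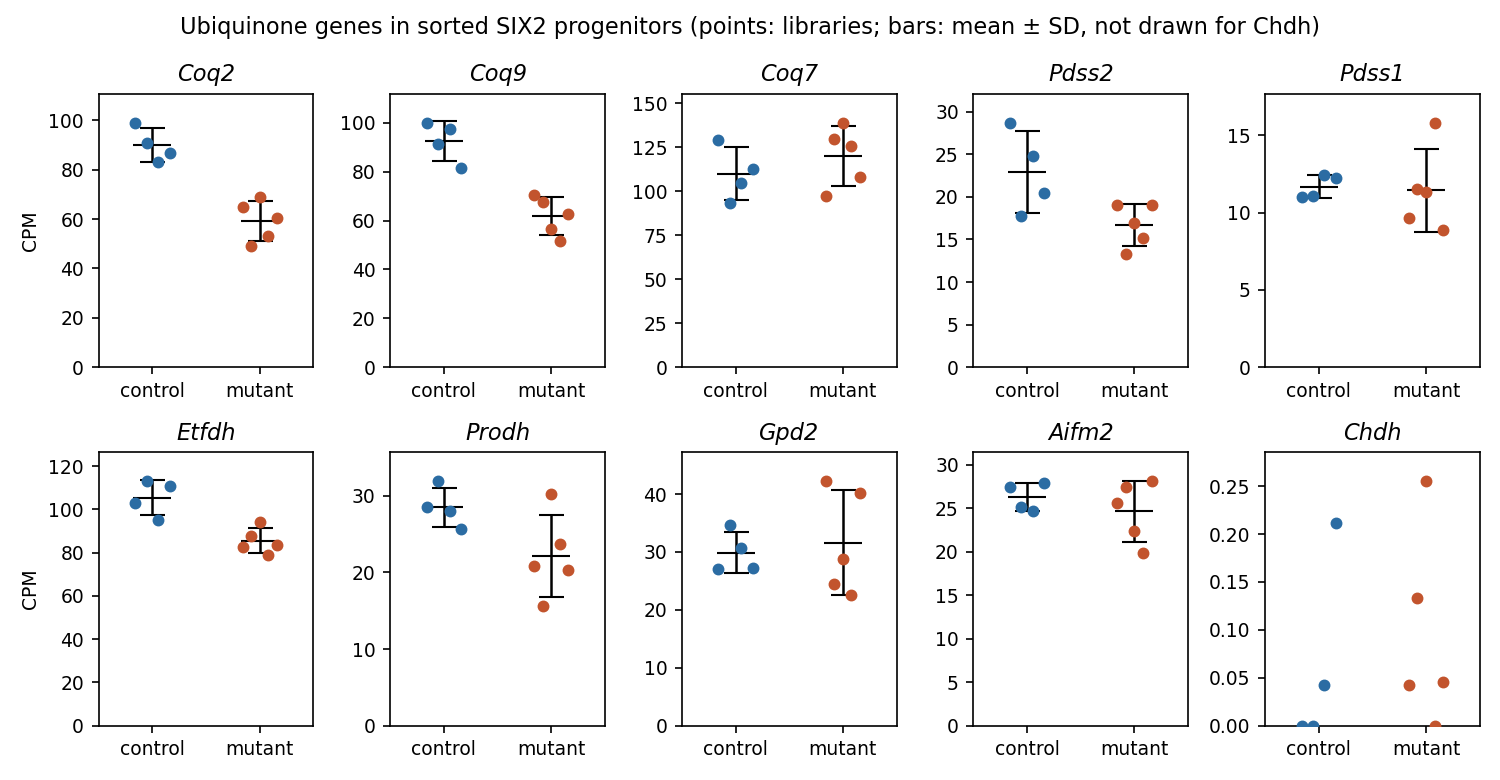
CPM (linear axis from 0) of the 10 ubiquinone genes in each library, with control libraries in blue (n = 4) and mutant libraries in orange (n = 5); bars give the mean ± SD and are left out for *Chdh*. All mutant libraries lie below all control libraries for *Coq2*, *Coq9* and *Etfdh*, and the genotypes overlap for the other genes.

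To show the start regions of genes that behaved differently, upstream sequence from RefSeq (build GRCm38.p6) is given for *Coq2*, which fell, for *Coq7*, which did not pass the threshold, and for *Etfdh*, whose window held the only motif match. The stretches end at the transcription start or at the first annotated untranslated base, and run 5′ to 3′ on the strand of the gene, which is the minus strand for each. They lie at chr5:100674285-100674506 (*Coq2*, upstream of the RefSeq start and inside the longer gene span of the count table), chr7:118533357-118533606 (*Coq7*) and chr3:79628864-79629017 (*Etfdh*). In *Coq2* and *Coq7* the capitals mark CG dinucleotides, of which the stretches hold 10 and 13. In *Etfdh* the capitals mark the motif of nuclear respiratory factor 1, a regulator of nuclear genes for mitochondria, searched as GCGCA, any base, GCGC.
Coq2: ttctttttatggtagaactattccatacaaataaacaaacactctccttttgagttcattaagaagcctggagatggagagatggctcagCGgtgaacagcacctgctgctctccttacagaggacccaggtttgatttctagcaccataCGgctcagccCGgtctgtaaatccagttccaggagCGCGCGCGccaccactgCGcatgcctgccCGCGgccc
Coq7: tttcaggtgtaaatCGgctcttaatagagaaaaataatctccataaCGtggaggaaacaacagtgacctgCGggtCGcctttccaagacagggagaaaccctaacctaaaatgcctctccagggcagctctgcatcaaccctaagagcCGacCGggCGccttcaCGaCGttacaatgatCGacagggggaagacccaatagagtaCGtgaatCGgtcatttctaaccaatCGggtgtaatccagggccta
Etfdh: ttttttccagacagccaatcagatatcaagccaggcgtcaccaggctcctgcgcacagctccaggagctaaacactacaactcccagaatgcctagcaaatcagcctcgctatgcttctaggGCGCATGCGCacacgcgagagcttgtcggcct

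All 10 genes were matched to the RefSeq promoter table, with 13 windows of 300 bases in all. Among them only the window of *Etfdh* held the nuclear respiratory factor 1 letters on either strand, and 4.6% of all 32851 promoters did. TGATGNAA, the core of the element bound by ATF4 with C/EBP factors, was found in 0 of the 13 windows and in 3.97% of all promoters, and the E-box CACGTG in 0 of 13 and in 7.15%. No match overlapped that of another motif in these windows, and a missing match says only that the letters are not in this window. CG dinucleotides were frequent in *Coq9*, with 39 per window, more than in 95.6% of all promoters, and *Coq2* had 23, against a median of 7 over all promoters. Among genes that did not pass the threshold, *Gpd2* had windows with 34 and 9, *Pdss1* had 22 and *Aifm2* had 4. *Coq7* and *Pdss2* had 18 each, and *Etfdh* and *Prodh* had 17 each. The untested *Chdh* had windows with 26, 4 and 4. Like the *Coq2* window, those of *Aifm2* and *Prodh* lie inside the gene span of the count table. So do the *Gpd2* window with 34 and the *Chdh* windows with 4. The *Coq9* window lies largely within annotated untranslated sequence, including that of the divergent neighbour *Ciapin1*, and is therefore not printed.

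*Coq2* encodes the prenyltransferase that joins the isoprenoid tail to the ring, the first step that makes a ubiquinone precursor (chromosome 5, 100654723 to 100675140, minus strand, ENSMUSG00000029319). Its level was 99, 90.7, 83 and 86.8 CPM in control replicates 71, 72, 73 and 76, and 64.8, 49.1, 69, 53.1 and 60.4 CPM in mutant replicates 74, 75, 77, 78 and 79. The highest mutant library, replicate 77, was thus below the lowest control library, replicate 73. The means were 89.9 ± 6.84 CPM and 59.3 ± 8.16 CPM, a log2 fold change of -0.60 (standard error 0.12, 95% interval -0.87 to -0.34, adjusted p = 0.0077, edgeR). The difference in CPM had p = 0.00794 in a 2-sided exact permutation test, the smallest p that 4 against 5 libraries allow. The call held in all 19 alternatives and left-out libraries tried, with log2 fold changes between -0.66 and -0.54. The pseudogene *Gm6728* shares 1006 of 1743 transcript bases with *Coq2* at 96.5% identity, and it held at most 7 reads in any library.

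*Coq9* encodes a lipid-binding protein that presents the ubiquinone precursor to COQ7 (chromosome 8, 94838321 to 94854895, plus strand, ENSMUSG00000031782). It had 100, 91.5, 97.6 and 81.5 CPM in control replicates 71, 72, 73 and 76, and 70.6, 67.8, 56.4, 51.7 and 62.7 CPM in mutant replicates 74, 75, 77, 78 and 79. The lowest control library, replicate 76, and the highest mutant library, replicate 74, were again separated. From 92.8 ± 8.38 CPM the level fell to 61.8 ± 7.85 CPM, a log2 fold change of -0.59 (standard error 0.12, 95% interval -0.85 to -0.32, adjusted p = 0.00842, edgeR), and the exact permutation p was 0.00794. The call held in all 19 alternatives, with log2 fold changes between -0.68 and -0.51. Exons of *Coq9* and *Ciapin1*, which lies on the opposite strand, overlap over 38 bases, and reads there cannot be assigned because the libraries kept no strand.

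The stromal, myeloid and committed nephron marker totals moved with genotype, as *Coq2* and *Coq9* did, and their part in these differences was not tested. Mutant replicate 75, with the highest stromal total (611 CPM), had the lowest *Coq2* level and the second-highest *Coq9* level among mutants. Mutant replicate 77, with the highest myeloid total (98.7 CPM), had the highest *Coq2* level and the second-lowest *Coq9* level among mutants. The removal of both libraries, an alternative chosen after the data were seen, leaves mutant libraries with stromal totals of 254 to 390 CPM, still above every control library, and so does not remove the difference in markers. In that fit the log2 fold change was -0.59 for *Coq2* (adjusted p = 0.0262, edgeR) and -0.58 for *Coq9* (adjusted p = 0.0377). With Y-linked expression as a covariate it was -0.61 for *Coq2* (adjusted p = 0.0116, edgeR) and -0.57 for *Coq9* (adjusted p = 0.0155).

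*Coq7* encodes the hydroxylase of the penultimate step of ubiquinone synthesis (chromosome 7, 118509659 to 118533356, minus strand, ENSMUSG00000030652). Per kilobase of the gene length in the table, control replicates 71, 72, 73 and 76 had 42, 30.4, 34.4 and 36.9 CPM, and mutant replicates 74, 75, 77, 78 and 79 had 31.8, 42.2, 45.4, 41 and 35.3 CPM. Mutant replicates 75 and 77 were above the control range and the other mutant libraries within it. Means without the division by length were 110 ± 14.9 and 120 ± 16.9 CPM, a log2 fold change of 0.12 with a 95% interval from -0.16 to 0.41 (adjusted p = 0.569, edgeR). That interval does not reach the value of *Coq9*, -0.59. The sign turned in 1 of the 19 alternatives, the fit with 1 surrogate variable (-0.04).

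Because COQ9 acts on COQ7, the ratio of their transcripts was taken within each library, again per kilobase. The *Coq9* to *Coq7* ratio was 1.34, 1.68, 1.59 and 1.24 in control replicates 71, 72, 73 and 76, and 1.24, 0.898, 0.694, 0.705 and 0.994 in mutant replicates 74, 75, 77, 78 and 79. Mutant replicate 74 reached the lowest control library and the other mutant libraries were lower. The mean log2 ratio differed by -0.71 (2-sided exact permutation test, p = 0.0238, and 0.0476 after Benjamini-Hochberg adjustment over the 2 pairs compared). Both pairs were chosen after the values of the single genes had been seen, and the adjustment over 2 pairs does not cover that choice. The ratio is made of the same values, so it restates the changes of the single genes and is not separate support for them. The direction held with any 1 library left out, with differences of -0.83 to -0.62. However, the exact permutation p-value rose above 0.05 for 7 of the 9 libraries left out (p = 0.0286 to 0.0714 over the 9). The exceptions were control replicate 76 and mutant replicate 74. Fewer libraries also allow fewer splits, which raises the smallest p-value that this test can give. The other pair, *Pdss2* to *Pdss1*, had mean ratios of 0.945 ± 0.219 and 0.739 ± 0.24 in control and mutant cells, a difference within the spread between libraries (exact permutation test, p = 0.206).

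**Figure D2:**
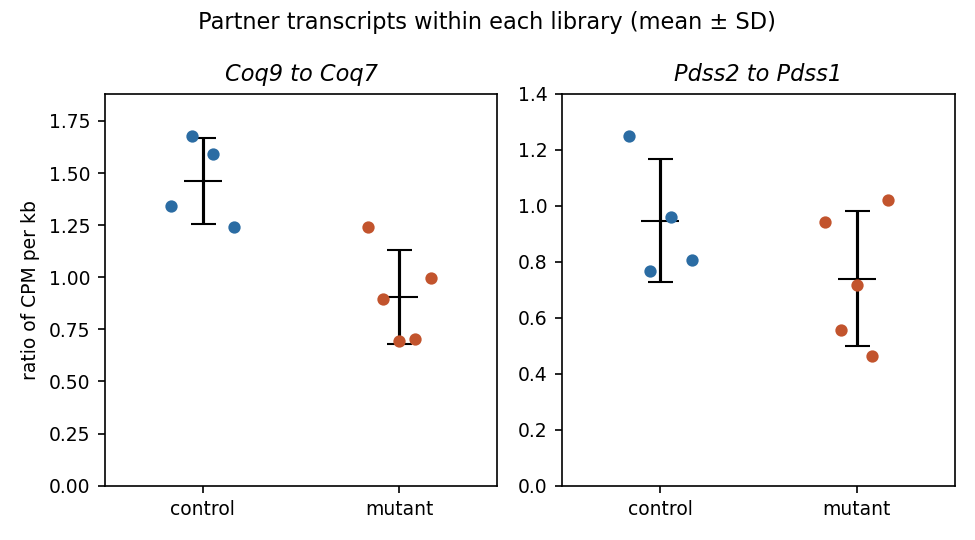
Ratio of CPM per kilobase of *Coq9* to *Coq7* and of *Pdss2* to *Pdss1* within each library (linear axis from 0), for control (blue, n = 4) and mutant (orange, n = 5), with mean ± SD. The *Coq9* to *Coq7* ratio is 1.24 to 1.68 in control and 0.694 to 1.24 in mutant libraries, and the *Pdss2* to *Pdss1* ratios overlap.

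PDSS1 and PDSS2 together form the synthase of the isoprenoid tail. *Pdss2* (chromosome 10, 43221486 to 43464882, plus strand, ENSMUSG00000038240) had 28.7, 17.8, 24.8 and 20.5 CPM in control replicates 71, 72, 73 and 76, and 19, 13.3, 16.9, 15.2 and 19 CPM in mutant replicates 74, 75, 77, 78 and 79. Only control replicate 72 lay within the mutant range. The means were 22.9 ± 4.78 CPM and 16.7 ± 2.46 CPM, a log2 fold change of -0.46 (95% interval -0.83 to -0.08) that missed the threshold (adjusted p = 0.0912, edgeR). Of the alternatives, limma-voom with sample quality weights brought *Pdss2* under the threshold, at -0.51 (adjusted p = 0.0258).
*Pdss1* (chromosome 2, 22895522 to 22940266, plus strand, ENSMUSG00000026784) had 11, 11.1, 12.4 and 12.2 CPM in control replicates 71, 72, 73 and 76, and 9.67, 11.5, 11.3, 15.8 and 8.89 CPM in mutant replicates 74, 75, 77, 78 and 79. Mutant libraries lay on both sides of the narrow control range, replicate 78 above it. The log2 fold change was -0.03 (95% interval -0.44 to 0.38, adjusted p = 0.93, edgeR), and its sign turned in 4 of the 19 alternatives. Exons of *Pdss1* share 194 bases with *Abi1* and 207 bases with *A130006I12Rik* on the opposite strand, and *Abi1* held up to 2540 reads in a library, so a part of the *Pdss1* reads is uncertain.

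Among the ubiquinone-reducing dehydrogenases, *Etfdh* passes electrons from fatty acid and amino acid oxidation, delivered by the electron-transferring flavoprotein, to ubiquinone (chromosome 3, 79603788 to 79628863, minus strand, ENSMUSG00000027809). It had 103, 113, 95 and 111 CPM in control replicates 71, 72, 73 and 76, and 82.8, 87.5, 94.3, 79.1 and 83.5 CPM in mutant replicates 74, 75, 77, 78 and 79. Control replicate 73 and mutant replicate 77 were less than 1 CPM apart, and the genotypes did not overlap. Levels were 106 ± 8.35 CPM and 85.5 ± 5.77 CPM, a log2 fold change of -0.31 (standard error 0.10, 95% interval -0.53 to -0.08). The exact permutation test of the CPM gave p = 0.00794, whereas the adjusted p-value over all genes was 0.0649 (edgeR), so *Etfdh* is not counted among the genes that fell. It passed with upper-quartile normalization (adjusted p = 0.0499) and with 1 surrogate variable (adjusted p = 0.0289). Of the *Etfdh* exon bases, 278 overlap *4930579G24Rik* on the opposite strand.

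*Prodh* encodes proline dehydrogenase, which oxidizes proline and hands the electrons to ubiquinone (chromosome 16, 18060357 to 18090203, minus strand, ENSMUSG00000003526). Control replicates 71, 72, 73 and 76 had 28.5, 31.9, 28 and 25.7 CPM, and mutant replicates 74, 75, 77, 78 and 79 had 20.8, 15.6, 30.2, 23.7 and 20.3 CPM. Mutant replicate 77 lay among the control libraries and the other mutant libraries lay below them. The log2 fold change of -0.37 (95% interval -0.75 to 0.01) did not pass the threshold (adjusted p = 0.173, edgeR), nor did it in any of the 19 alternatives.

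*Gpd2* encodes the mitochondrial glycerol 3-phosphate dehydrogenase of the glycerol phosphate shuttle, which brings electrons of cytosolic NADH to ubiquinone (chromosome 2, 57237635 to 57370719, plus strand, ENSMUSG00000026827). Its level was 27, 34.6, 30.6 and 27.3 CPM in control replicates 71, 72, 73 and 76, and 42.2, 24.4, 28.7, 22.6 and 40.1 CPM in mutant replicates 74, 75, 77, 78 and 79. Mutant replicates 74 and 79 were above every control library, and replicates 75 and 78 were below every control library. The means, 29.9 ± 3.56 CPM and 31.6 ± 9.04 CPM, did not differ beyond this spread (log2 fold change 0.08, 95% interval -0.34 to 0.50, adjusted p = 0.815, edgeR). The sign of this change turned in 4 of the 19 alternatives. *Gpd1*, which encodes the cytosolic partner of the shuttle, was low, at 1.06 ± 0.332 CPM in control cells.

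*Aifm2* encodes FSP1, which reduces ubiquinone at membranes outside the mitochondrial respiratory chain and limits lipid peroxidation (chromosome 10, 61715263 to 61739260, plus strand, ENSMUSG00000020085). It had 27.4, 25.2, 24.7 and 27.9 CPM in control replicates 71, 72, 73 and 76, and 25.6, 27.4, 22.4, 19.8 and 28.1 CPM in mutant replicates 74, 75, 77, 78 and 79. Mutant replicates 77 and 78 were below the control range and replicate 79 just above it, and the log2 fold change was -0.09 (95% interval -0.40 to 0.21, adjusted p = 0.7, edgeR). *Aifm2* exons share 233 bases with *H2afy2* on the opposite strand.
*Chdh*, choline dehydrogenase, is known from liver and mature kidney tubules, where it starts the conversion of choline to betaine (chromosome 14, 30009023 to 30040466, plus strand, ENSMUSG00000015970). It had 0, 0, 1 and 5 reads in control replicates 71, 72, 73 and 76, and 1, 3, 5, 0 and 1 reads in mutant replicates 74, 75, 77, 78 and 79. Only control replicate 76 and mutant replicate 77 exceeded a floor of 3 counts. *Chdh* did not pass the filter on low counts and was not tested, and a difference was not detectable at this depth. Its exons share 589 bases with *Cacna1d* on the opposite strand.

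**Figure D3:**
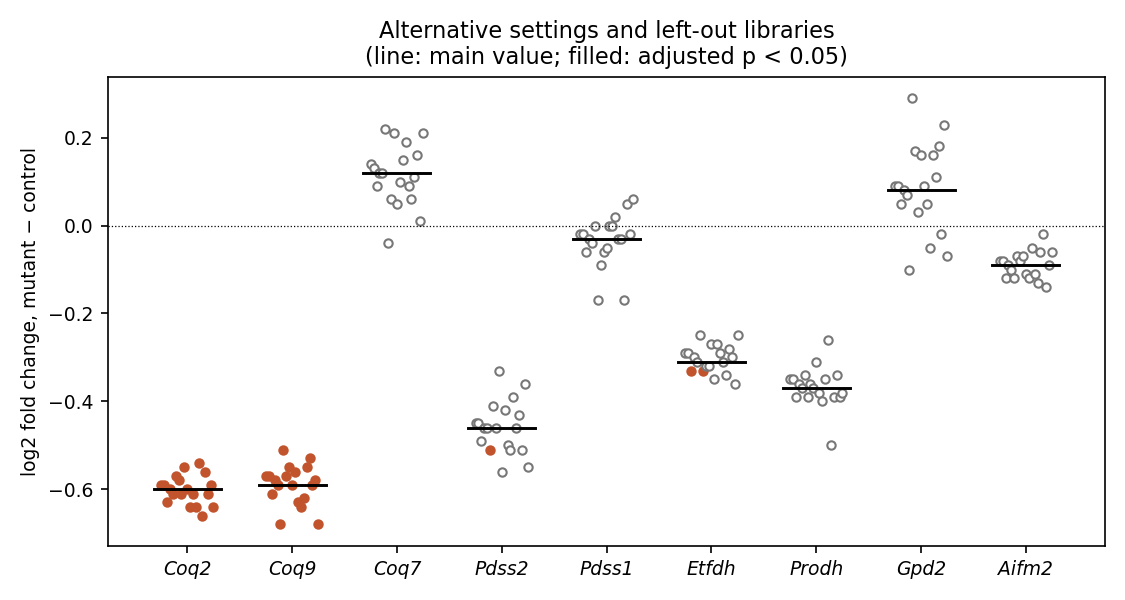
Log2 fold change, mutant minus control, of the 9 genes tested under each of 19 alternative settings and left-out libraries (points, filled where the adjusted p-value is under 0.05) with the main value as a line. All points of *Coq2* and *Coq9* are filled, *Etfdh* has 2 filled points and *Pdss2* 1, and *Gpd2*, *Pdss1* and *Coq7* have points on both sides of 0.

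Compared per kilobase of the gene length in the count table, the level of the genes in control cells followed the order *Coq9*, *Coq2*, *Coq7*, *Etfdh*, *Prodh*, *Aifm2*, *Pdss1*, *Pdss2*, *Gpd2* and *Chdh*. This order depends on those lengths. All exons annotated in GENCODE M21 cover 7797 bases for *Prodh* against 2385 in the count table. For *Coq7* they cover 6434 against 3070, and for *Gpd2* 6549 against 5759. The order with such lengths was not computed and may differ. The per-length level was 51.8 ± 4.68 CPM per kb for *Coq9* and 51.6 ± 3.92 for *Coq2*, whose ranges over libraries overlapped. *Coq7* followed with 35.9 ± 4.86 CPM per kb. The ranges of *Pdss1*, *Pdss2* and *Gpd2*, at mean per-length levels of 5.98, 5.63 and 5.19 CPM per kb, overlapped as well, and all other neighbours in the order were separated. In mutant cells *Coq7* had the highest mean, 39.1 ± 5.5 CPM per kb, ahead of *Coq9* (34.6 ± 4.39) and *Coq2* (34 ± 4.68), with ranges that overlapped from each to the next. *Etfdh* came next, at 22.9 ± 1.54 CPM per kb, below the range of *Coq2*. From *Prodh* to *Pdss2* each range in mutant cells overlapped that of the next gene, and *Pdss2* and *Gpd2* changed places.

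**Figure D4:**
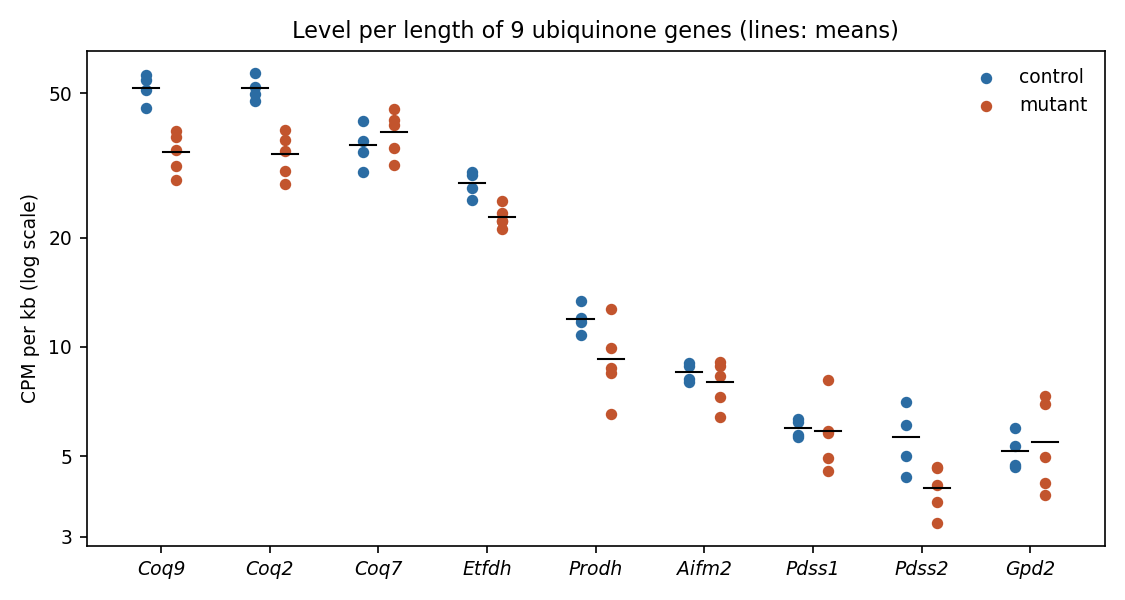
Level per gene length (CPM per kilobase, log axis) of 9 ubiquinone genes in each control (blue, n = 4) and mutant (orange, n = 5) library, ordered by the control mean, with lines at the means; *Chdh*, with 0 to 5 reads per library, is left out. With the lengths of the count table, *Coq9* and *Coq2* lead in control cells at 51.8 and 51.6 CPM per kb, and *Coq7* leads in mutant cells at 39.1.

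The other genes of these pathways were read from the same fit. Over 5 lists, 38 of 40 genes were tested, of which 8 fell and 4 rose, and 26 did not pass the threshold. These 12 are 31.6% of the 38, beside 14.8% of all genes tested, and the median log2 fold change was -0.15 beside -0.01. The lists were chosen with earlier results of these data known, so these shares only describe the lists.

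Of the 9 other genes of ubiquinone synthesis and handling (*Coq3*, *Coq4*, *Coq5*, *Coq6*, *Adck3*, *Adck4*, *Coq10a*, *Coq10b*, *Pptc7*), 2 fell, 1 rose and 6 did not pass. The genes called are 33.3% of this list, beside 14.8% of all genes tested. *Adck3* (also *Coq8a*), an atypical kinase that supports the COQ proteins, fell from 42.9 ± 10.4 to 20.5 ± 6.88 CPM, a log2 fold change of -1.06 (adjusted p = 0.0126, edgeR). Control replicate 76, at 28.4 CPM, was just below mutant replicate 79, at 29.1 CPM. Without mutant replicates 75 and 77 the adjusted p-value of *Adck3* was 0.0746.
*Coq10a* and *Coq10b* encode related proteins that bind ubiquinone, and they moved in opposite directions. *Coq10a* was at 28.6, 23.8, 23.9 and 26.2 CPM in control replicates 71, 72, 73 and 76, and at 19, 16.7, 17.1, 15.9 and 19.4 CPM in mutant replicates 74, 75, 77, 78 and 79 (log2 fold change -0.54, adjusted p = 0.0185, edgeR). *Coq10b* was at 6.94, 8.72, 6.32 and 8.9 CPM in the control and 18.2, 29, 19.5, 32.2 and 12.1 CPM in the mutant libraries, in the same order (log2 fold change 1.52, standard error 0.27, adjusted p = 0.00373, edgeR). Neither gene had any overlap between genotypes. The call of *Coq10b* held in all 19 alternatives and that of *Coq10a* in 16 of 19, with adjusted p-values of 0.053 without control replicate 71, 0.0517 without mutant replicate 78 and 0.09 without mutant replicates 75 and 77. *Coq5*, the methyltransferase of the ring, was higher in every mutant library, with a log2 fold change of 0.30 that did not pass (adjusted p = 0.0929).

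Of the other enzymes that reduce ubiquinone, namely the complex II genes *Sdha*, *Sdhb*, *Sdhc* and *Sdhd*, *Dhodh* and *Sqrdl*, 0 of 6 tested passed the threshold in the edgeR fit, and 1 of them, *Dhodh*, had an unadjusted p-value under 0.05. Their log2 fold changes lay between -0.51 (*Sqrdl*, adjusted p = 0.322) and 0.04. The share of all genes called, 14.8%, would give 0.891 of 6 genes. *Dhodh*, which oxidizes dihydroorotate in pyrimidine synthesis and is named here after its values were seen, had means of 54 ± 4.23 and 42.3 ± 2.72 CPM in control and mutant cells, with no overlap. Its log2 fold change of -0.35 had an adjusted p-value of 0.051 (edgeR) and passed in 5 of 19 alternatives, DESeq2 and limma-voom among them (adjusted p = 0.0281 and 0.00617), where the other 5 genes of the list did not. *Prodh2* was not tested for want of reads.

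The genes of reactions next to the dehydrogenases split by their role in proline metabolism. *Pycr1* and *Aldh18a1*, which make proline, rose, and *Aldh4a1*, which completes the oxidation that *Prodh* begins, fell. *Aldh18a1* rose from 72.1 ± 16.6 to 152 ± 35.7 CPM, a log2 fold change of 1.08 (adjusted p = 0.0042, edgeR). *Pycr1* had a log2 fold change of 0.86 (adjusted p = 0.00544, edgeR), and the genotypes did not overlap for either gene. *Aldh4a1* was at -0.67 on the log2 scale (adjusted p = 0.047, edgeR), and that call was lost in 11 of 19 alternatives, among them the fit with Y-linked expression (adjusted p = 0.0623) and each library left out other than mutant replicates 74 and 79. The other 7 genes tested, among them *Etfa* (log2 fold change -0.22, adjusted p = 0.261) and *Etfb* (-0.21, adjusted p = 0.252), which encode the flavoprotein that ETFDH oxidizes, did not pass. Genes called are 30% of the 10 tested in this list, beside 14.8% of all genes tested.

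Among 4 genes linked to FSP1 or to lipid peroxidation (*Gpx4*, *Nqo1*, *Acsl4*, *Gch1*), *Acsl4* rose and the other 3 did not pass. The share called is 25%, beside 14.8% of all genes tested. *Acsl4* activates polyunsaturated fatty acids for membrane lipids. Its level went from 15.2 ± 2.98 to 28.8 ± 3.98 CPM, a log2 fold change of 0.93 (adjusted p = 0.00476, edgeR), with no overlap. *Gch1* had a larger log2 fold change, 1.10, that missed the threshold (adjusted p = 0.0596, edgeR), whereas *Gpx4* and *Nqo1* were at -0.01 and -0.05.

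The isoprenoid tail of ubiquinone comes from the mevalonate pathway, which also feeds cholesterol synthesis. Of 9 genes of this supply, 5 fell (*Acat2*, *Mvk*, *Pmvk*, *Idi1*, *Fdps*), 0 rose in the edgeR fit (1, *Ggps1*, at an unadjusted p-value under 0.05, and 0 with DESeq2 or limma-voom), and *Hmgcs1*, *Mvd*, *Ggps1* and *Fdft1* did not pass. The genes called are 55.6% of this list, beside 14.8% of all genes tested. The median log2 fold change was -0.56, beside -0.01 for all genes tested. *Fdps*, the synthase of farnesyl diphosphate, from which the tail is built, fell from 150 ± 26.3 to 89.7 ± 14 CPM, a log2 fold change of -0.75 (adjusted p = 0.00625, edgeR). The log2 fold change was -0.56 for *Acat2* and -0.60 for *Pmvk* (adjusted p = 0.00587 and 0.0104, edgeR), and these calls, like that of *Fdps*, held in all 19 alternatives. The calls of *Mvk* (log2 fold change -0.76, adjusted p = 0.0381, edgeR) and *Idi1* (-0.61, adjusted p = 0.0469) were lost with most libraries left out: that of *Mvk* held without control replicate 76 or mutant replicate 74, and that of *Idi1* without mutant replicate 77. *Ggps1*, whose enzyme makes geranylgeranyl diphosphate, had a log2 fold change of 0.37 (adjusted p = 0.126, edgeR).

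**Figure D5:**
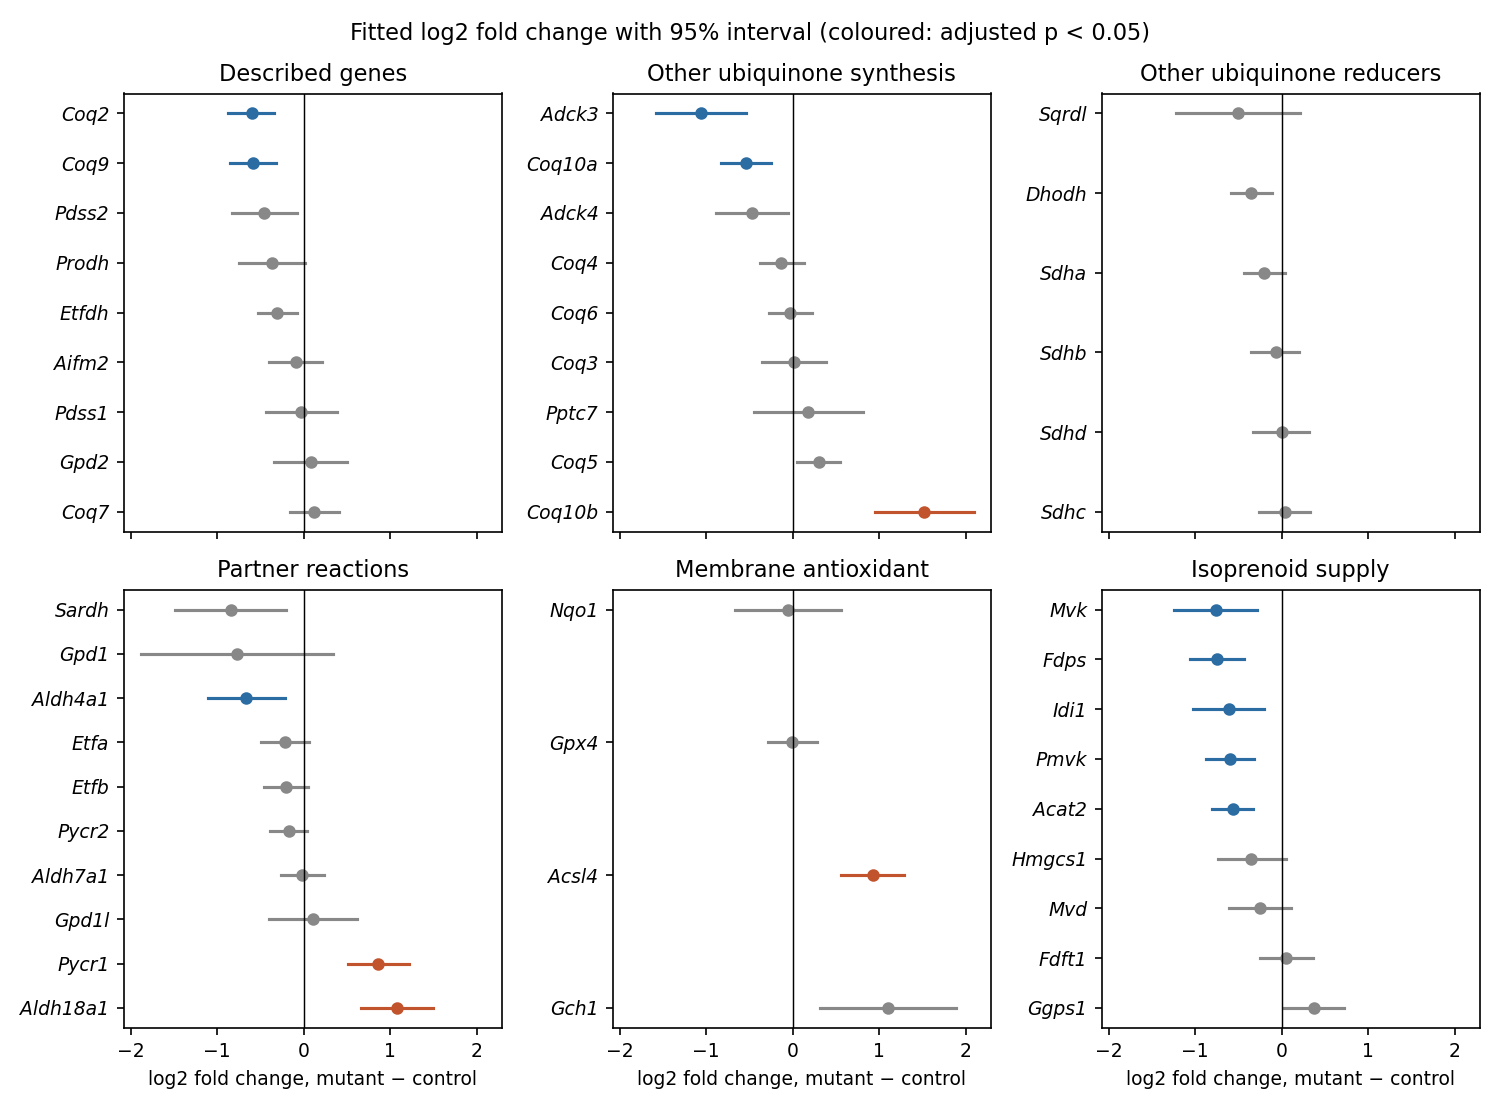
Fitted log2 fold change, mutant minus control, with its 95% interval for each gene tested, in 6 panels by list; blue marks genes that fell and orange genes that rose with an adjusted p-value under 0.05 (edgeR), grey all others. The 2 blue genes of the first panel are *Coq2* (-0.60) and *Coq9* (-0.59), and *Coq10b* (1.52) lies farthest to the right.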

How the data were processed

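RNA-seq of 9 libraries of sorted SIX2 progenitors was used, 4 control and 5 mutant. Per the labels, cDNA was amplified from low-input RNA, poly(A) selected and sequenced without strand information. The submitters' processing notes name STAR, DESeq2 and build mm10 (GRCm38). The table deposited by the authors holds read counts per gene. It also holds FPKM values of the authors, which equal counts per kilobase and per 1000000 counted reads (100% within 1%). The columns of the authors' own comparison (normalized group means, fold changes and p-values) were not used.

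The test used edgeR 4.0.16 in R 4.3.3: filterByExpr (14990 of 26858 genes kept), TMM factors and the robust quasi-likelihood test on genotype, adjusted by Benjamini-Hochberg over all genes tested, with a threshold of 0.05. Standard errors were taken as the size of the fold change (log2) over √F, and 95% intervals use the degrees of freedom of the fit. CPM are counts per 1000000 of the TMM-normalized library size, and levels between genes were compared per kilobase of the length in the table. The CPM of single genes and the ratios were tested by exact permutation (2-sided). The lowest chi-square per gene between 2 libraries was 14.2, where 1 is sampling noise, so no library was a copy of another. Between 21040536 and 23986458 reads per library make counting error small for the described genes other than *Chdh*; among the listed pathway genes *Prodh2*, *Dmgdh* and *Gpd1* also had few reads.

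Genes and lists, the motifs and the rule for named genes (all members, the targeted gene, and of each list up to 6 genes past the threshold or else the largest change) were chosen with earlier results of these data known. Of the listed pathway genes, 2 are not reported here and were left out of the lists' counts. Alternatives were DESeq2 1.42.0, RLE and upper-quartile factors, both other filters, limma-voom (limma 3.58.1), 1 surrogate variable (sva 3.50.0), Y-linked expression (*Ddx3y*, *Eif2s3y*, *Kdm5d*, *Uty*) as a covariate, and each library left out; removal of 2 libraries at a time and the transcript ratios were added after the data were seen. Exon overlaps come from GENCODE M21 (GRCm38), which may differ from the annotation the authors used, and similar transcripts from BLAST 2.17.0. Protein sequences were not used here. The model was tested on simulated data. Figures were drawn with Python 3.11.15 and matplotlib 3.10.9.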

Additional observations from a re-analysis of the deposited data

How the results depend on the processing

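The number of ubiquinone genes past the threshold was 2 in the main analysis and 2 or 3 under every alternative normalization, filter, test, covariate and left-out library, and 4 at an unadjusted p-value under 0.05. The third gene, where there was one, was *Etfdh* or *Pdss2*. The number of other pathway genes, 12, was 8 to 14 with 1 library left out and 18 at an unadjusted p-value. The number of all genes called, 2225, moved more: it was 4858 with limma-voom, 4709 at an unadjusted p-value, 1017 without mutant replicates 75 and 77, 3583 without control replicate 76 and mutant replicate 74, and 1046 to 3136 with 1 library left out, with 1354, 1272, 1046 and 1336 without control replicates 71, 72 and 73 and mutant replicate 78. The causes were not tested. The difference in the log2 ratio of *Coq9* to *Coq7* ranged from -0.83 to -0.62 with 1 library left out. The order of the levels was the same with the deposited FPKM for all 10 genes in both genotypes. Those FPKM are the same counts per kilobase and differ only in the scaling of each library, so this is not an independent check. They use the same gene lengths, and the order was not checked with other lengths. No paired analysis was possible because the labels give no litter or batch by which control and mutant libraries could be paired. Depth left *Chdh*, *Prodh2* and *Dmgdh* untested, and *Gpd1* had only 5 to 39 reads per library.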

Other observations

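Mutant libraries differed among themselves for *Gpd2*, which was at 42.2 and 40.1 CPM in replicates 74 and 79 and at 22.6 to 28.7 CPM in the other 3, against 27 to 34.6 CPM in control cells. *Adck3* had its highest mutant levels in the same libraries, 26.1 and 29.1 CPM, against 12.2 to 17.8 CPM in the others, and *Pdss2* had 19 CPM in each of them against 13.3 to 16.9 CPM. For *Pdss1* the order was the opposite, with 9.67 and 8.89 CPM in replicates 74 and 79 and 11.3 to 15.8 CPM in the others. Only 1 of these 2 libraries, replicate 79, carried Y-linked transcripts. These libraries were singled out after their values were seen, and no test was made.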
